A study of Macaca fuscata with 18 samples.

Results

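The genes described here are 10 heat shock proteins and co-chaperones, namely 5 members of the HSP70 family (HSPA1A, HSPA1B, HSPA1L, HSPA2 and HSPA8), the J-domain protein DNAJB1, the exchange factors HSPH1 and BAG3, and the small heat shock proteins HSPB1 and CRYAB. The 10 members were chosen by symbol from the 19747 gene symbols of the count table, and each was represented by the transcript row with the highest mean abundance. The tissue was the anterior subventricular zone (SVZa), the neurogenic niche along the anterior horn of the lateral ventricle, of Macaca fuscata monkeys 4 to 6 years old. In 3 ischemia monkeys the blood supply of the whole brain was interrupted by clipping arteries for 18 min, and 3 sham-operated monkeys, labelled control, had the same operation without the clip. Tissue was taken 7 days after either operation from the striatal side of the right ventricle as 3 adjacent fragments per monkey, so that RNA Seq gave 18 libraries. In the library names the MK number was read as the monkey and the A number (A1, A2, A3) as the fragment. The sex of the animals in each group is not given in the sources used here.

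Heat shock proteins are chaperones, which bind unfolded proteins and keep them from aggregating. HSP70 proteins work in cycles of ATP hydrolysis, in which J-domain proteins deliver substrates and start hydrolysis, and exchange factors release the nucleotide and the substrate. Small heat shock proteins hold unfolded proteins without ATP, and the transcription factor HSF1 induces many of these genes when proteins are damaged, as after ischemia. The roles given below are those described for the human proteins.

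Counts summed over all transcript rows were 19091839 to 57461603 in the sham libraries, with a median of 38019896. In those of ischemia they were 18076257 to 74551396, with a median of 55634148. Rows of 1 gene can share reads, so these sums are not numbers of reads. The study used a paired test but does not name the pairs in its text, so they were inferred from the numbered columns of its gene table. MK504 (sham) and MK503 (ischemia) were taken as pair 1, MK501 and MK507 as pair 2, and MK508 and MK506 as pair 3. The 6 libraries of pair 1 stood apart: the nuclear RNA MALAT1 took 1.09 to 1.27% of their counts and 0.036 to 0.235% of those of the other 12 libraries. In 3 of them (A2 of MK503, A2 and A3 of MK504) POLE2 took a further 5.16 to 5.59%. In the A2 fragment of sham monkey MK501, TTR, a choroid plexus transcript, took 4.25%. Defining markers of astrocytes, oligodendrocytes, neurons, ependyma and neuroblasts were detected in all 18 libraries.

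All 10 members passed the filter on low counts, and their lowest count in any library was 58, for HSPA1L. Levels are given as CPM, the count scaled to a common library size over 1 transcript row per symbol after normalization by the trimmed mean of M values (TMM). No transcript lengths were used, so levels of different genes are not compared with each other. Over the 9 sham libraries, HSPA1A spanned 86.6 to 243 CPM (median 161.7) and over the 9 ischemia libraries 84.2 to 477 CPM (median 249.8). CRYAB spanned 18.2 to 1227 CPM in sham (median 164.7) and 28.3 to 1418 CPM in ischemia (median 213.6). HSPA8, the constitutive HSP70, had the narrowest range of the 10, with 1258 to 1592 CPM in sham and 1156 to 1567 CPM in ischemia. For every member the ranges of the libraries of the 2 groups overlapped.

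**Figure D1:**
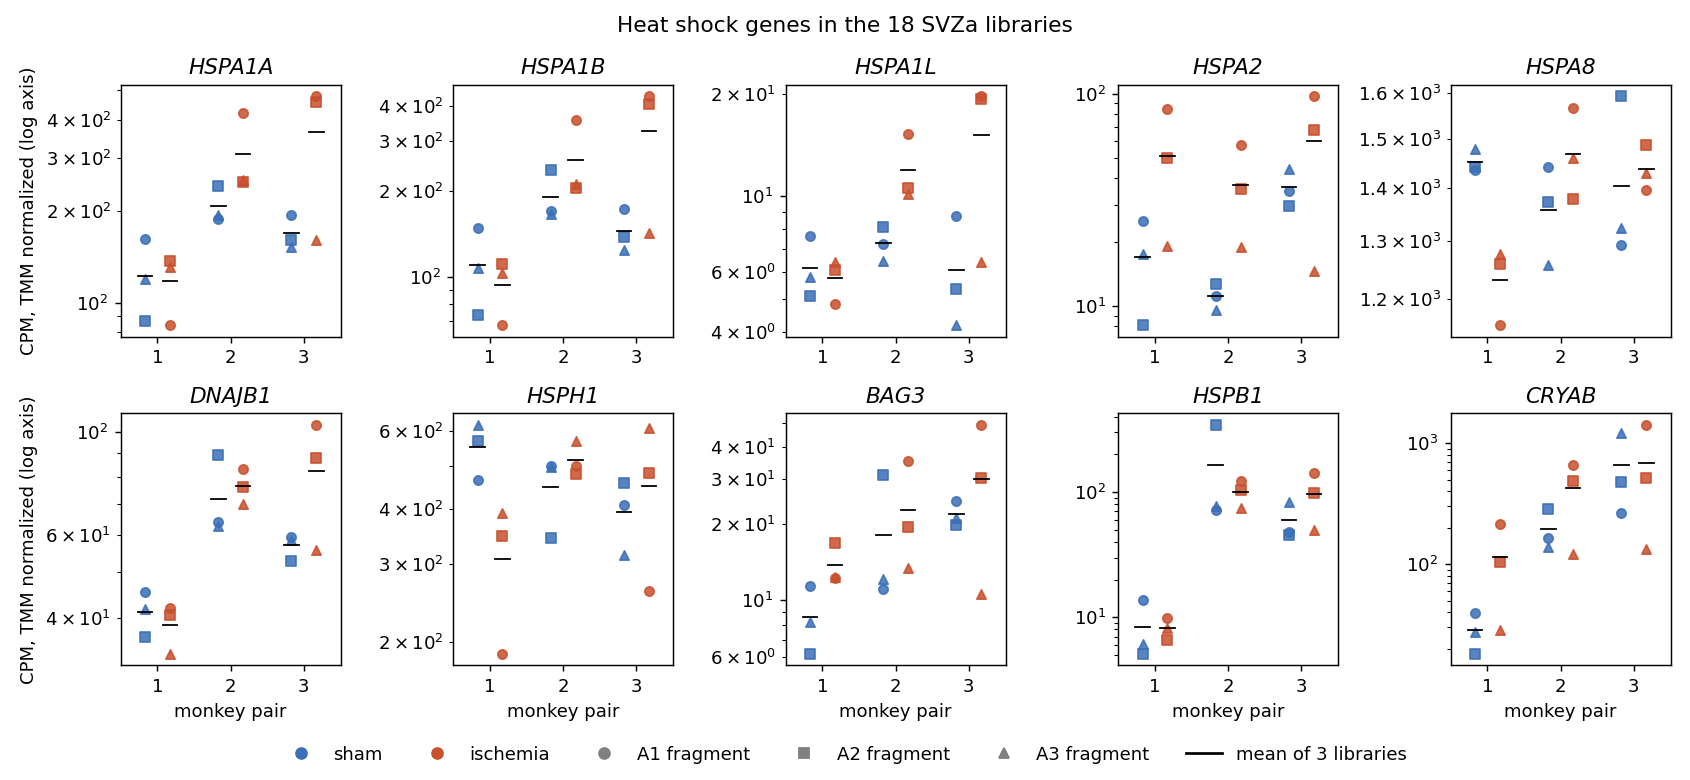
CPM (log axis, 1 panel per gene with its own scale) of the 10 heat shock genes in the 18 libraries, by monkey pair, with sham in blue, ischemia in orange, a marker shape for each fragment and a line at the mean of the 3 libraries of a monkey. HSPB1 lies between 5.11 and 13.7 CPM in all 6 libraries of pair 1 and at or above 45.7 CPM in the other 12, while HSPA8 lies within 1156 to 1592 CPM throughout.

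To ask which members differed between ischemia and sham, libraries were added up to 1 count per gene and monkey, and the sums were compared over the 3 pairs. HSPA2, CRYAB and BAG3 were higher in the ischemia monkey of every pair. Of all genes tested, 20.4% were higher in every pair. None of the 10 members passed an adjusted p under 0.05 in edgeR's quasi-likelihood test, and neither did any of the 17522 genes tested (0%; smallest adjusted p 0.2055). At an unadjusted p under 0.05 the same 3 members were higher and none was lower, against 8.38% of all genes higher and 8.04% lower. DESeq2, fitted to the same sums and pairs, called the same 3 members at an adjusted p under 0.05, where it called 3.77% of all genes as higher and 2.43% as lower. The median log2 fold change was 0.52 over the 10 members and -0.02 over all genes tested. The members were chosen with earlier results of these data known, so the 2 medians are a description only. The fit rests on 2 residual degrees of freedom, to which the edgeR test adds others estimated across genes. Its p-values weigh the difference between conditions against its spread over the 3 pairs of these 6 monkeys.

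HSPA2 is an HSP70 best known from the testis, where it is needed for the maturation of sperm, and it is also expressed in the brain. Its level was 17.25, 10.95 and 35.01 CPM in the sham monkeys MK504, MK501 and MK508 and 50.8, 40.4 and 60.4 CPM in the ischemia monkeys MK503, MK507 and MK506. The groups did not overlap, since the lowest ischemia monkey lay above the highest sham monkey, as was the case for 2.44% of all genes. The mean was 21.1 ± 12.5 CPM (SD, n = 3) in sham and 50.5 ± 10.03 CPM (SD, n = 3) in ischemia. The paired log2 fold change was 1.41 ± 0.24 (SE), or 2.65-fold, with an adjusted p of 0.2055 in edgeR and 5.0e-06 in DESeq2. Within the pairs, the log2 ratio was 1.56, 1.88 and 0.79. HSPA2 was 147th of all genes by the p-value in edgeR.

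CRYAB, or alpha B-crystallin, is a small heat shock protein abundant in the lens, in muscle and in glial cells of the brain. It measured 28.8, 188.9 and 564.5 CPM in the sham monkeys of pairs 1, 2 and 3 and 114.3, 467.5 and 661.4 CPM in their ischemia partners. Each ischemia monkey was above its own partner, but the groups overlapped widely, and the sham monkey of pair 3 exceeded the ischemia monkeys of pairs 1 and 2. The higher level in every pair therefore depends on the pairing, which was inferred. The log2 ratio declined from 1.99 in pair 1 to 1.31 in pair 2 and 0.23 in pair 3. The paired fit gave 1.17 ± 0.36 (SE), or 2.26-fold, with an unadjusted p of 0.022 and an adjusted p of 0.247 in edgeR and 0.0059 in DESeq2. The value rested on the A1 fragments: without them it was 0.36 (unadjusted p 0.547 in edgeR), and without the A1 library of MK506 alone it was 0.90 (unadjusted p 0.171). Without the pairing the log2 fold change was 0.67 (unadjusted p 0.553 in edgeR). In the paired fit, leaving out 1 monkey also takes its partner out of the comparison, so such fits rest on the other pairs. Without either monkey of pair 1 the value was 0.77 (unadjusted p 0.0509 without MK503 and 0.0504 without MK504 in edgeR). Without MK501 or MK507 of pair 2 it was 1.13 and 1.10 (unadjusted p 0.081 each). Without either monkey of pair 3 it was 1.65.

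BAG3, an HSP70 exchange factor that also directs clients to selective autophagy, showed the most even ratios. It measured 8.66, 17.1 and 22 CPM in the sham monkeys of pairs 1 to 3 and 13.8, 24.5 and 29.9 CPM in the ischemia monkeys. The groups overlapped, but the ischemia monkey was higher in each pair, with log2 ratios of 0.67, 0.52 and 0.44. The log2 fold change was 0.54 ± 0.12 (SE), with an adjusted p of 0.209 in edgeR and 0.043 in DESeq2. It was 0.26 without the A1 fragments (unadjusted p 0.424 in edgeR) and 0.39 without the A1 library of MK506 (unadjusted p 0.088). Without the 3 libraries rich in POLE2 it was 0.36 (unadjusted p 0.056). Without the pairing it was 0.51 (unadjusted p 0.311 in edgeR), and over 18 libraries it was 0.42 both in edgeR with 9 against 9 and in limma voom (unadjusted p 0.121 each).

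The stress-inducible HSP70 genes HSPA1A and HSPA1B encode nearly identical proteins and lie beside HSPA1L in the human genome. HSPA1A measured 123.9, 205.2 and 171.9 CPM in the sham monkeys of pairs 1 to 3 and 117.0, 321.1 and 375.7 CPM in the ischemia monkeys. Ischemia MK503 was the lowest of all 6, and the other 2 ischemia monkeys were above every sham monkey. The log2 fold change was 0.57 ± 0.25 (SE; adjusted p 0.342 in edgeR and 0.198 in DESeq2). Leaving out either monkey of pair 1 or of pair 3 moved it widely, to 0.89 without MK504 and to 0.28 without MK508.

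HSPA1B measured 110.9, 186.6 and 148.3 CPM in sham and 93.4, 269.6 and 335.4 CPM in ischemia, in the order of the pairs. The ischemia monkeys were lowest and highest of the 6, as for HSPA1A. The log2 fold change was 0.49 ± 0.29 (SE; adjusted p 0.433 in edgeR). HSPA1L, an HSP70 expressed mostly in the testis, measured 6.21, 7.16 and 6.43 CPM in sham and 5.73, 12.4 and 15.6 CPM in ischemia. Its sham monkeys lay close together, and its log2 fold change was 0.67 ± 0.30 (SE; adjusted p 0.345 in edgeR and 0.230 in DESeq2).

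HSPA1A and HSPA1B may not be independent measurements. Reads of near-identical HSP70 genes can be assigned to either copy, and how the authors treated reads with several matches is not given in the sources used here. The raw count of HSPA1B was 78.5 to 97.5% of that of HSPA1A in all 18 libraries, with a coefficient of variation of 5.64%, while HSPA1A itself ranged 6.17-fold when scaled to the library totals. The count of HSPA1L was 2.74 to 5.89% of that of HSPA1A (coefficient of variation 19.5%). By comparison, the count of DNAJB1 was 19.2 to 49.7% of that of HSPA1A (coefficient of variation 24.3%), about as steady as that of HSPA1L, and the count of HSPA2 was 4.92 to 100.2% of it. Whether HSPA1A and HSPA1B each had their pattern on their own cannot be told from this table, and read sharing by HSPA1L was not tested.

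**Figure D2:**
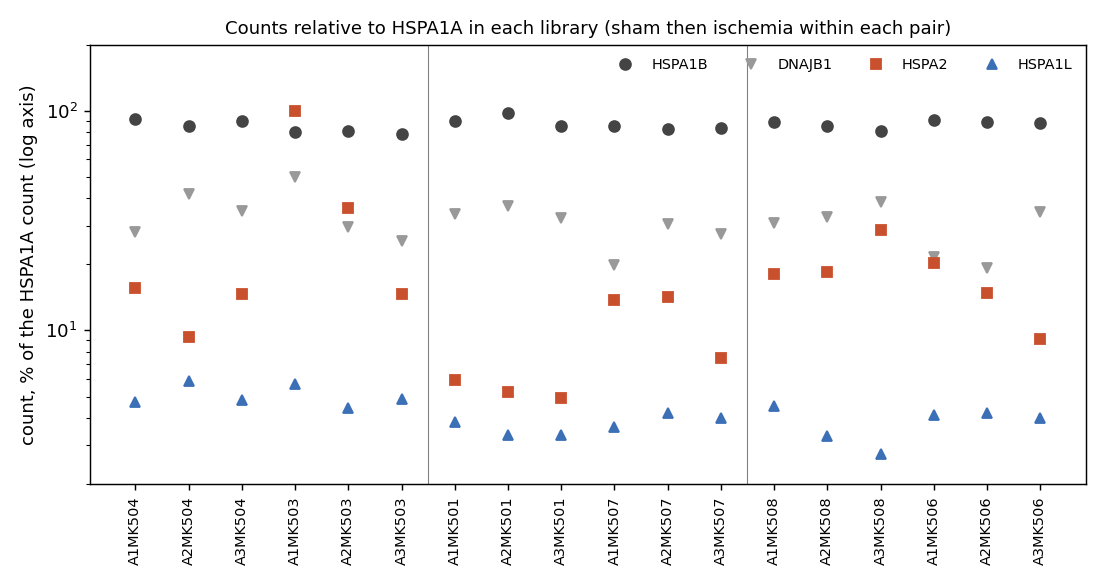
Raw counts of HSPA1B, DNAJB1, HSPA2 and HSPA1L as a percentage of the HSPA1A count (log axis) in each of the 18 libraries, sham before ischemia within each pair. HSPA1B stays between 78.5 and 97.5% of HSPA1A, whereas HSPA2 reaches 100.2% in the A1 fragment of ischemia monkey MK503 and is as low as 4.92% in sham monkey MK501.

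HSPA8, the constitutive HSP70 of the cytosol, measured 1468, 1347 and 1407 CPM in the sham monkeys of pairs 1 to 3 and 1224, 1478 and 1459 CPM in the ischemia monkeys. The ischemia group held both the lowest and the highest of these values. The log2 fold change was -0.03 ± 0.17 (SE; adjusted p 0.953 in edgeR), with a 95% interval of -0.46 to 0.41. HSPA8 was the only member with 2 transcript rows, of which the second held 61.9 to 76.9% of the count of the first and gave a log2 fold change of 0.06 (adjusted p 0.878 in edgeR over all transcript rows).

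DNAJB1, the J-domain partner of the inducible HSP70 and itself an HSF1 target, measured 41.6, 70.4 and 56.9 CPM in sham and 38.4, 77.6 and 83.4 CPM in ischemia. Its log2 fold change was 0.19 ± 0.16 (SE; adjusted p 0.557 in edgeR). HSPH1, an HSP110 protein that acts as an exchange factor for HSP70, measured 560.6, 452.4 and 404.5 CPM in sham and 307.5, 511.0 and 462.5 CPM in ischemia. The ischemia monkey of pair 1 was the lowest of all 6, and the fitted value of -0.16 ± 0.26 (SE; adjusted p 0.779 in edgeR) turned to 0.19 when either monkey of that pair was left out.

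HSPB1, also called HSP27, measured 8.29, 150.8 and 55.5 CPM in the sham monkeys of pairs 1 to 3 and 8.14, 104.0 and 96.2 CPM in the ischemia monkeys. The 2 monkeys of pair 1 were alike and far below the others, and the ischemia monkey was higher in pair 3 only. The log2 fold change was 0.08 ± 0.27 (SE; adjusted p 0.905 in edgeR). The sham value of pair 2 contained 1 library, the A2 fragment of MK501, with 343.9 CPM of HSPB1 against 71.7 and 77.4 CPM in the other 2 fragments of that monkey. In this library the summed choroid plexus markers reached 73630 CPM, and their part in the HSPB1 value was not tested. Without it the log2 fold change of HSPB1 was 0.42 (unadjusted p 0.058, adjusted p 0.272 in edgeR).

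**Figure D3:**
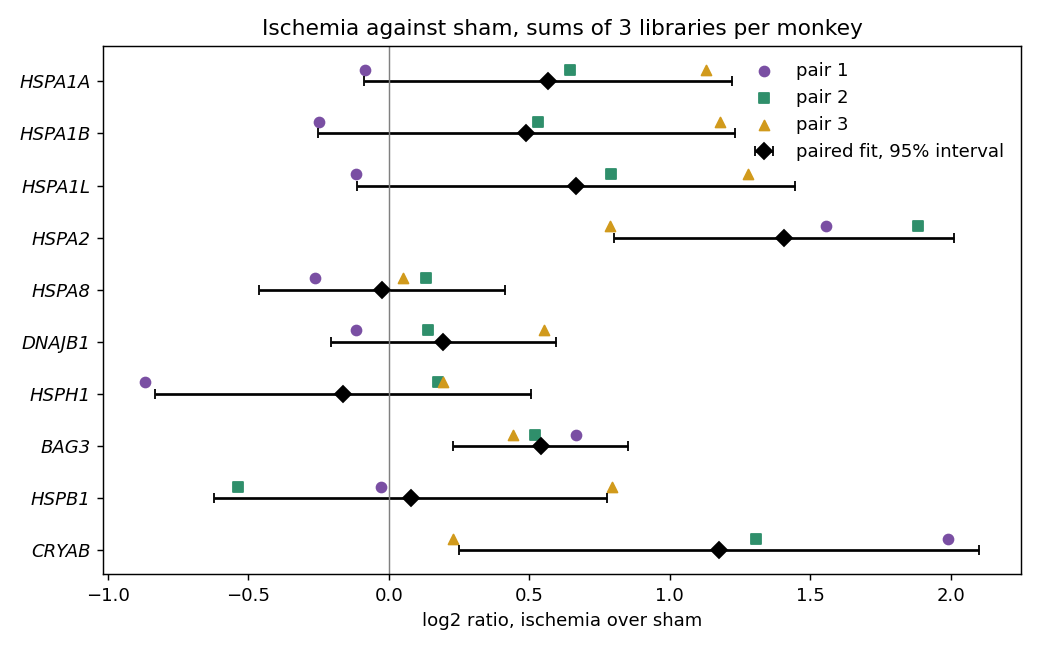
Log2 ratio of ischemia over sham in each of the 3 pairs (colored symbols) and the log2 fold change of the paired fit with its 95% interval (black) for the 10 heat shock genes. The interval lies above 0 for HSPA2 (0.80 to 2.01), BAG3 (0.23 to 0.85) and CRYAB (0.25 to 2.10) and spans 0 for the other 7, before adjustment over all genes.

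A pattern of signs was shared by 6 members. HSPA1A, HSPA1B, HSPA1L, HSPA8, DNAJB1 and HSPH1 were lower in the ischemia monkey of pair 1 and higher in that of pairs 2 and 3. This pattern was picked after the values were seen, and 15.1% of all genes had it. In pair 1 the log2 ratio ranged from -0.08 (HSPA1A) to -0.87 (HSPH1), and in pair 3 from 0.05 (HSPA8) to 1.28 (HSPA1L). HSPA1A and HSPA1B can share reads, so they may not be separate observations. HSPA2, CRYAB and BAG3 did not follow it, and all 3 had their smallest ratio in pair 3.

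In edgeR, 5 of the 10 members differed among the 3 pairs at an adjusted p under 0.05, a share close to the 55.7% of all genes tested. The largest difference was that of HSPB1, with a mean of 8.22 CPM in pair 1, 127.4 in pair 2 and 75.9 in pair 3 (adjusted p 0.0030 in edgeR). CRYAB was at 71.5, 328.2 and 612.9 CPM in pairs 1, 2 and 3 (adjusted p 0.0080 in edgeR). BAG3 was 11.2, 20.8 and 25.95 CPM (adjusted p 0.0055 in edgeR), with pair 1 the lowest again.

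DNAJB1 was at 40.0 CPM in pair 1 against 74.0 and 70.1 CPM in pairs 2 and 3 (adjusted p 0.027 in edgeR), and HSPA2 was lowest in pair 2 (34, 25.7 and 47.7 CPM; adjusted p 0.048 in edgeR). Leaving out 1 monkey ended the call of HSPA2 in 4 of 6 cases, without MK501, MK503, MK504 or MK508 (adjusted p 0.067 to 0.13), and that of DNAJB1 in 3 of 6, without MK501, MK503 or MK507 (adjusted p 0.060 to 0.086). HSPA1A, with 120.5, 263.1 and 273.8 CPM, missed the threshold in edgeR (adjusted p 0.059) and passed it in DESeq2 (adjusted p 0.0039). HSPA8 and HSPH1 had adjusted p-values of 0.913 and 0.852 in edgeR. The libraries of pair 1 are also those with MALAT1 above 1% of counts, and its part in these differences was not tested. The pair took 87.1% of the variance of log2 CPM over the 18 libraries for HSPB1, 71.2% for DNAJB1 and 61.4% for CRYAB, and 57.5% for the median gene. The other 7 members lay below the median gene, from 49.2% for HSPA1B to 6.6% for HSPH1. For HSPA2 the condition took 29.5%, the largest share of the 10 members, where the median gene had 2.9%.

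To see whether the adjacent fragments of a monkey differed, the 18 libraries were compared within monkeys. None of the 10 members and none of 16353 genes differed among A1, A2 and A3 at an adjusted p under 0.05 in edgeR (0%). At an unadjusted p under 0.05 no member and 11.6% of all genes differed, and DESeq2 called 184 genes at an adjusted p under 0.05, no member among them. HSPA2 came nearest, at a log2 difference of -0.60 in A2 and -1.05 in A3 relative to A1 (unadjusted p 0.054, adjusted p 0.431 in edgeR).

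The difference between ischemia and sham was then taken within each fragment. The fitted log2 fold changes of HSPA2 and CRYAB were highest in A1 and below 0 in A3 (-0.14 and -1.03). In A1, CRYAB was higher in ischemia by log2 values of 2.43, 2.01 and 2.42 in pairs 1, 2 and 3, and its fitted value was 2.28 ± 0.19 (SE; adjusted p 0.056 in edgeR). HSPA2 was higher in A1 by 1.74, 2.36 and 1.48, with a fitted value of 1.85 ± 0.22 (SE; adjusted p 0.058 in edgeR). In all 3 pairs the A1 fragment of the ischemia monkey thus held more of both transcripts than that of its partner. Whether A1 is the same position in each monkey is not given in the sources used here. In A1 the log2 ratio of the summed ependyma markers was -3.79, 1.58 and -0.55 in pairs 1, 2 and 3. That of the summed striatal projection neuron markers was -2.93, -1.27 and -2.38. The part of tissue content in these differences was not tested.

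In A2 the log2 ratio of HSPA2 was 2.61, 1.48 and 1.18 (fitted value 1.75 ± 0.37, SE; unadjusted p 0.0061, adjusted p 0.891 in edgeR), and that of CRYAB was 2.51, 0.76 and 0.09. In A3 that of HSPA2 was 0.13, 0.99 and -1.58, and that of CRYAB was 0.04, -0.18 and -3.19. The ratio of pair 3 in A3 came from 1227 CPM of CRYAB in sham MK508 against 134.2 CPM in ischemia MK506. BAG3 had a fitted value of 0.93 ± 0.33 (SE; unadjusted p 0.037, adjusted p 0.197 in edgeR) in A1 and of -0.08 in A3.

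No gene passed an adjusted p under 0.05 within A1 (0%), A2 (0%) or A3 (0%) in edgeR. At an unadjusted p under 0.05, 3 members were higher in A1 (10.8% of all genes), 1 in A2 (3.39%) and none in A3 (3.09%). DESeq2 was not run within fragments. The test of whether the difference between conditions depends on the fragment gave an unadjusted p of 0.0030 for HSPA2 and 0.0027 for CRYAB, and an adjusted p of 0.2999 for both in edgeR. By this test no gene passed after adjustment (0%) and 10% passed at an unadjusted p under 0.05, among them 2 of the 10 members.

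**Figure D4:**
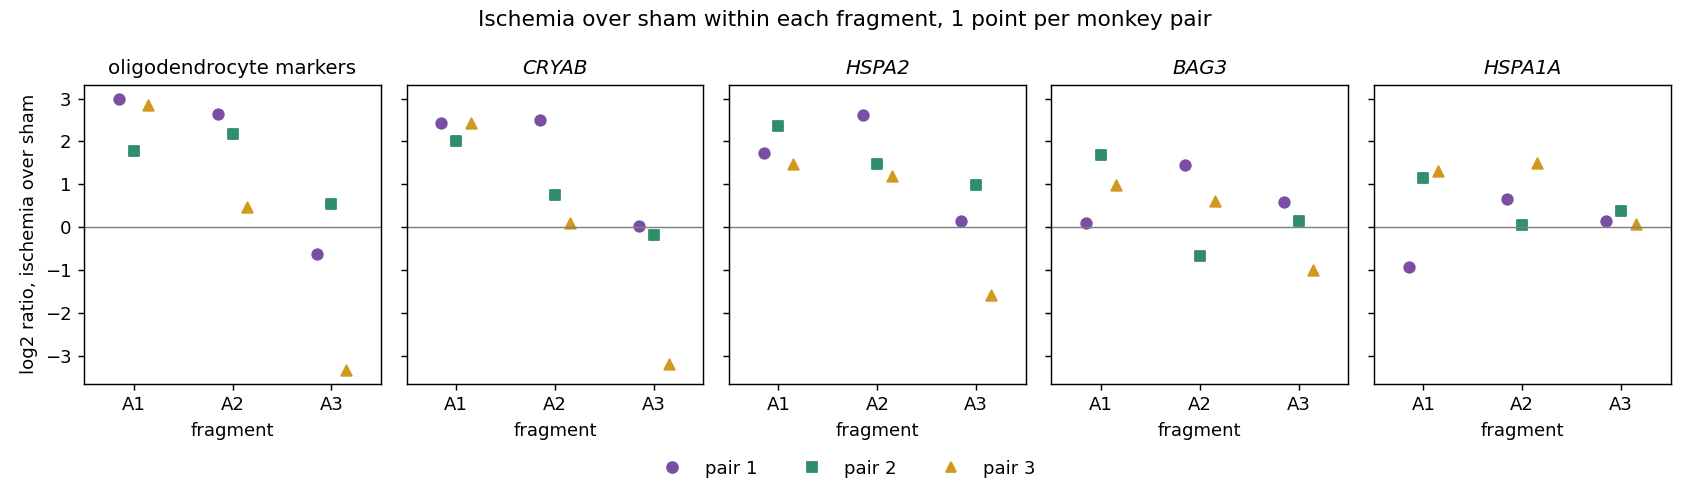
Log2 ratio of ischemia over sham within fragments A1, A2 and A3, 1 point per monkey pair, for the summed oligodendrocyte markers and for CRYAB, HSPA2, BAG3 and HSPA1A. In A3 the point of pair 3 lies at -3.34 for the oligodendrocyte markers, -3.19 for CRYAB and -1.58 for HSPA2.

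Markers of oligodendrocytes, the myelinating cells in which CRYAB is known to be expressed, were set beside CRYAB and HSPA2. Of 10 markers, 9 were higher in ischemia at an unadjusted p under 0.05 in edgeR and 9 at an adjusted p under 0.05 in DESeq2, with a median log2 fold change of 1.55. Their summed level was 2899 to 19210 CPM in the sham monkeys and 13730 to 23710 CPM in the ischemia monkeys, with MBP, which encodes myelin basic protein, as the most abundant. All 10 were detected in every library. The log2 ratio of the sum was 2.40, 1.84 and 0.30 in pairs 1, 2 and 3, and that of CRYAB fell off in the same order. That of HSPA2 did not, with 1.56, 1.88 and 0.79.

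Within A1 the sum was higher in ischemia by log2 values of 3.004, 1.77 and 2.84, and within A3 by -0.63, 0.54 and -3.34. HSPA2 in A1 had 1.74, 2.36 and 1.48, so its highest ratio fell in pair 2, where the sum had its lowest. The highest library of each group was the same for the markers as for CRYAB, with 47210 CPM of markers in A1 of ischemia MK506 and 48210 CPM in A3 of sham MK508. In 17 of 18 comparisons of 2 fragments of 1 monkey, CRYAB and the marker sum were ordered alike, and HSPA2 and the marker sum were ordered alike in 16 of 18. DNAJB1 had the order of this sum in 15 of 18, HSPB1 in 14 and the remaining members in 5 to 12. The share of all genes with such an order was not counted. The sum of microglia markers had the order of CRYAB in 15 of 18 and of HSPA2 in 16 of 18. That of neuron markers had it in 3 and 2 of 18, and that of progenitor and neuroblast markers in 14 and 15 of 18. The part of oligodendrocyte content in the differences of CRYAB and HSPA2 was not tested. In bulk tissue, a change in the number of cells of a type and a change in RNA per cell cannot be told apart.

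HSPA1A and BAG3 had the order of other marker sums. HSPA1A was ordered like the ependyma sum and like the choroid plexus sum in 17 of 18 comparisons each. It was ordered like the blood sum in 14 and the progenitor and neuroblast sum in 13. The astrocyte sum had its order in 12 and the oligodendrocyte sum in 10. BAG3 was ordered like the choroid plexus sum in 17 of 18 and the blood sum in 16. The ependyma and the progenitor and neuroblast sums had its order in 15 each, the astrocyte sum in 14 and the oligodendrocyte sum in 12. The choroid plexus sum was 549.9 to 22030 CPM in the sham monkeys and 216.2 to 329.4 CPM in the ischemia monkeys, and the ependyma sum was 566.4 to 808.8 and 601.9 to 771.0 CPM. The progenitor and neuroblast sum was 285.8 to 347.9 CPM in the sham monkeys and 392.1 to 540.2 CPM in the ischemia monkeys. The part of these cells in the levels of HSPA1A and BAG3 was not tested. HSPH1 stood opposite, with the order of the oligodendrocyte sum in 5 of 18 and of the neuron sum in 13 of 18. Of the other lists, 5 of 6 markers of oligodendrocyte precursors, 3 of 10 of astrocytes and 5 of 8 of progenitors and neuroblasts were higher in ischemia at an unadjusted p under 0.05 in edgeR. By the same measure 5 of 8 markers of striatal projection neurons, 2 of 8 of neurons in general, 3 of 8 of endothelium and 3 of 7 of mural cells were lower, and of 8 markers of the choroid plexus 5 were lower and 1 higher. None of the markers of microglia, ependyma and blood passed. Of all genes tested, 8.38% were higher and 8.04% lower by this measure. Astrocyte markers summed to 7450 to 12180 CPM in sham and 10550 to 15630 CPM in ischemia monkeys, and microglia markers to 250.5 to 353.8 and 240.2 to 269.3 CPM.

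Across the 18 libraries the genes most like CRYAB in log2 CPM were PAQR6 (r = 0.987), PPP1R14A (r = 0.983), RHOG (r = 0.983), KLF15 (r = 0.981) and TJAP1 (r = 0.980), out of 13356 genes with a mean of at least 5 CPM. Those most like HSPA2 were GPR37 (r = 0.963), FAM63A (r = 0.960), GPD1 (r = 0.948), FAM124A (r = 0.940) and UNC5B (r = 0.935). Those most like HSPA1A, leaving out members, were PLCB3 (r = 0.929), PRMT2 (r = 0.928), EFNB1 (r = 0.911), SFXN5 (r = 0.910) and SMPD2 (r = 0.903). These Pearson coefficients describe 18 libraries that share 6 monkeys, 3 pairs and their depth, and the genes were ranked by them. No gene was among the 5 of more than 1 member.

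Among the members, HSPA1A and DNAJB1 had r = 0.90 over the 18 libraries and r = 0.75 after the mean of each monkey was taken out. CRYAB and HSPA2 had r = 0.63 and, within monkeys, r = 0.90. BAG3 and DNAJB1 had r = 0.78 and 0.93. HSPH1 ran opposite to CRYAB (r = -0.41 and -0.83) and to HSPA2 (r = -0.63 and -0.75). Like the values above, these are descriptions of libraries that share animals.

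The rest of the chaperone system was read from 11 lists of genes, which share some members. Of 6 regulators of the heat shock factors none reached an unadjusted p under 0.05 in edgeR. HSF1, the factor that induces the heat shock genes, was at 42.5 ± 25.0 CPM in sham and 43.4 ± 26.9 CPM in ischemia (SD, n = 3), a log2 fold change of -0.05 ± 0.17 (SE). HSBP1, which binds HSF1 and dampens it, had 0.14 ± 0.15 (SE). Of 21 other genes induced by HSF1, none passed at an unadjusted p, and their median log2 fold change was 0.01.

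Of 10 other HSP70 and HSP110 genes none reached an unadjusted p under 0.05. HSPA5, the HSP70 of the endoplasmic reticulum, had a log2 fold change of -0.12 ± 0.18 (SE), and HSPA9, that of mitochondria, -0.21 ± 0.13 (SE). HSP90 and its co-chaperones likewise gave 0 of 15, with HSP90AA1, the inducible form, at -0.18 ± 0.17 (SE) and HSP90AB1, the constitutive form, at 0.01 ± 0.21 (SE). Of 12 mitochondrial chaperones none passed, and HSPD1, or HSP60, had 0.01 ± 0.16 (SE). Of 11 exchange factors and adaptors of HSP70 none passed, with ST13, which links HSP70 to HSP90, at 0.20 ± 0.12 (SE) and STUB1, a ubiquitin ligase bound to HSP70, at -0.25 ± 0.11 (SE).

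Single genes of the other lists passed at an unadjusted p under 0.05 in edgeR, none after adjustment. By this measure 8.38% of all genes were higher and 8.04% lower, so single genes of a list do not set it apart. Of 12 J-domain proteins, DNAJB5 was lower at -0.37 ± 0.12 (SE; unadjusted p 0.025), while the abundant DNAJA1 and DNAJB2 had 0.08 ± 0.22 and 0.23 ± 0.12 (SE). Of the 9 genes of the cytosolic chaperonin list, CCT8 was lower at -0.30 ± 0.11 (SE; unadjusted p 0.044), and CCT6A had -0.10 ± 0.13 (SE). Of 25 genes of endoplasmic reticulum folding and stress, ATF6, a sensor of unfolded proteins, was higher at 0.60 ± 0.17 (SE; unadjusted p 0.018), and HSP90B1 and CANX had -0.26 ± 0.19 and 0.09 ± 0.14 (SE).

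Of 8 other small heat shock proteins, 6 passed the filter on low counts, and HSPB3 was higher at 0.82 ± 0.31 (SE; unadjusted p 0.045) from a low level of 1.53 ± 0.96 CPM in sham and 2.49 ± 0.65 CPM in ischemia (SD, n = 3). HSPB8, the partner of BAG3, had 0.47 ± 0.27 (SE), and HSPB6 had -0.21 ± 0.23 (SE). Of 14 partners of BAG3 in selective autophagy, UBQLN2, a ubiquilin, was lower at -0.31 ± 0.12 (SE; unadjusted p 0.042), and SQSTM1 and VCP had 0.28 ± 0.12 and 0.12 ± 0.13 (SE).

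FLNC, a filamin that BAG3 clears from the cytoskeleton in muscle, was higher by 1.19 ± 0.12 (SE), with an unadjusted p of 0.00019 and an adjusted p of 0.2055 in edgeR. It measured 41.5 ± 14.3 CPM in sham and 92.7 ± 23.7 CPM in ischemia (SD, n = 3), and its log2 ratios were 1.28, 1.32 and 0.96 in pairs 1, 2 and 3. The groups of monkeys did not overlap, and 2.44% of all genes were higher in ischemia without overlap. Among the lists, HSF2BP, ST13 and FLNA were also higher without overlap, and DNAJB4 and DNAJB9 were lower without overlap. FLNC was the only gene of the 11 lists that DESeq2 called (adjusted p 2.3e-09). DESeq2 called 3.77% of all genes as higher and 2.43% as lower. The medians of the 11 lists lay between -0.15 and 0.11, and that of the 10 members was 0.52. Members and lists were chosen with earlier results of these data known, so these medians cannot set the members apart. HSPA1A and HSPA1B, which can share reads, both count among the 10.

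**Figure D5:**
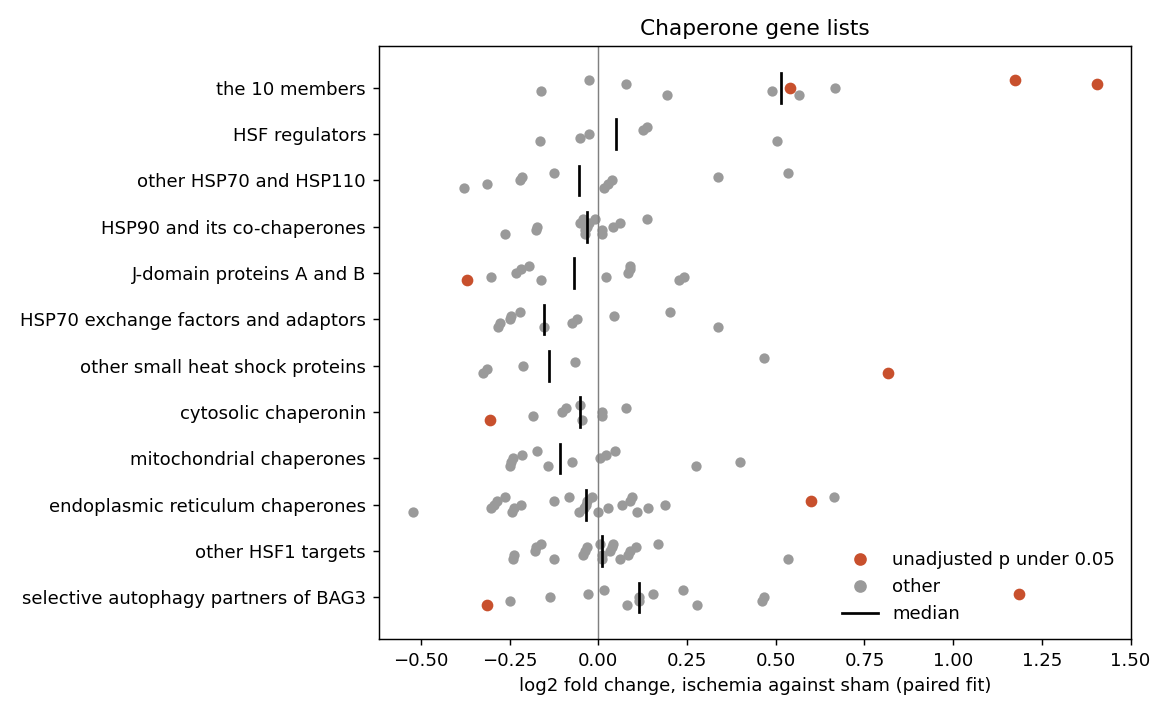
Log2 fold change of ischemia against sham in the paired fit for the 10 members and for the genes of 11 chaperone lists, with genes at an unadjusted p under 0.05 in orange and a line at the median of each list. The medians of the lists lie between -0.15 and 0.11, that of the 10 members is 0.52, and FLNC is the rightmost point of the lists at 1.19. Members and lists were chosen with earlier results of these data known.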

How the data were processed

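The authors processed reads with CASAVA (1.8.2) and FastQC (0.10.0), used TopHat2 (2.0.8) for alignment to the genome of Macaca mulatta and RhesusBase for its genes, and counted with bedtools (2.16.2). They deposited raw counts for 29686 human RefSeq transcripts, without normalization. Other per-sample columns numbered 0. Reads were assigned to genes of a sister species, and reads of near-identical genes may be split between them.

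Members and lists were chosen with earlier results of these data known. The text names all 10 members, the 2 most abundant genes of each list with up to 2 of the smallest unadjusted p under 0.05, and the 5 genes most like HSPA1A, HSPA2 and CRYAB. Some of what this rule names is not reported here. Counts were summed per monkey, filtered with filterByExpr, TMM normalized and fitted in edgeR (4.0.16) with the robust quasi-likelihood F test, pair and condition as terms, and Benjamini-Hochberg adjustment over all genes. SE is the absolute log2 fold change divided by the square root of F. Ratios of single pairs are ratios of CPM. The chaperone and marker lists were summarized by counts and medians.

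The study used a paired test. Pairs were read from the numbered columns of its gene table, whose values matched 1 monkey each (median absolute log2 difference of at most 0.0055, against at least 0.2038 for the next monkey). Deviations from group means correlated at 0.90, 0.82 and 0.73 across genes for the 3 pairs. For MK501 with MK506 and MK508 with MK507, which are not pairs, they correlated at 0.70 and 0.52, so the correlations hardly separate pairs 2 and 3. The 3 libraries of a monkey were not copies of each other, since a chi-square test of their counts gave at least 10.9 for each degree of freedom. This test cannot show that they came from separate pieces of tissue, which was taken from the study and the library names. DESeq2 (1.42.0) and limma (3.58.1) were alternatives, in R (4.3.3). The script was tested on simulated data.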

Additional observations from a re-analysis of the deposited data

Results flagged for a closer look

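In 20 groups of 9 libraries (10 members, 2 conditions), 3 values stood further from the rest of their group than Dixon's 95% critical value allows. The rule was applied to CPM, not to log2 CPM. Its critical value assumes normally distributed values, whereas CPM spanned up to 67.6-fold within a group (CRYAB in sham). No chance rate can thus be set beside the 3 flags, which are a description only. HSPB1 was at 343.9 CPM in the sham library A2 of MK501, where the next sham library had 84.1 CPM. CRYAB was at 1227 CPM in the sham library A3 of MK508, where the next had 481.5 CPM, and at 1418 CPM in the ischemia library A1 of MK506, where the next had 664.0 CPM. The 9 libraries of a group come from 3 monkeys and are not independent. In the first library TTR took 4.25% of counts, and the other 2 held the highest sums of oligodendrocyte markers in their groups. The part of these in the 3 values was not tested.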

How the results depend on the processing

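With 3 monkeys a group, leaving out 1 animal, and with it the comparison of its pair, moved several values. Of 212 fold changes of members under alternatives, 193 kept their direction and their side of an adjusted p of 0.05, 5 passed it and 14 changed sign. HSPA2 passed in DESeq2, in limma voom (adjusted p 0.049) and without the A3 fragments (adjusted p 0.035), and BAG3 and CRYAB in DESeq2. HSPA8 turned to 0.032 with libraries scaled to equal totals, 0.0070 with transcript rows summed and 0.052 with its second row. HSPB1 turned to -0.043 without the replicate block, -0.040 with 9 against 9 libraries, -0.14 without A1, -0.098 without the 3 libraries rich in POLE2 and -0.030 without the A1 library of MK506. Without 1 monkey, HSPA8 ranged from -0.10 to 0.098, HSPH1 from -0.34 to 0.19 and HSPB1 from -0.29 to 0.42. The cause was not tested.

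Genes called at an adjusted p under 0.05 numbered 0 in the paired fit, 1087 in DESeq2, 1223 in limma voom, 892 with 9 against 9 libraries, 1 without A2, 282 without A3 and 0 to 15 without 1 monkey. Genes at an unadjusted p under 0.05 numbered 2878, and 221 without the pairing (0 after adjustment), 4350 in limma voom, 1096 without A1, 1619 without A2, 1734 without the A1 library of MK506 and 1343 to 3883 without 1 monkey. For fragments, DESeq2 called 184 genes. Of 90 adjusted p-values of members for pairs, 10 passed and 7 no longer passed, namely those of HSPA2 (0.011 to 0.13 without 1 monkey) and DNAJB1 (0.017 to 0.086). The settings that leave out 1 library were chosen after the data were seen.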
